A study of Caenorhabditis elegans with 10 samples.

Results

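The genes described here encode 7 regulators of the choice between mitosis and meiosis in the adult germline of *Caenorhabditis elegans*: *glp-1*, *fbf-1*, *fbf-2*, *gld-1*, *nos-3*, *gld-2* and *gld-3*. They were chosen by name, with their values known, from a table of RNAs enriched with the protein DLC-1, so their presence in it is a description and not a finding. All 7 are among the 2732 genes of the authors' deposited table. RNA had been sequenced from 5 FLAG immunoprecipitates and 5 inputs. Every sample came from whole-worm extract of synchronized young adults of the genotype 3xFLAG::DLC-1, so the inputs carry the tagged protein as well. DLC-1 is an LC8-type dynein light chain that also joins complexes without dynein, among them complexes with the PUF protein FBF-2. No precipitate from untagged worms was analysed here, and enrichment is therefore relative to input alone. Inputs were primed with oligo-dT while immunoprecipitated RNA was not enriched, so the pull-down and the library type cannot be told apart as the source of any fold given here.

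In the worm gonad, the distal tip cell signals through the Notch receptor GLP-1 and keeps neighbouring germ cells dividing as stem cells. FBF-1 and FBF-2 act in those cells, where they bind the 3' untranslated regions of mRNAs that would drive meiosis and hold them silent. Away from the niche, 2 partly redundant branches of RNA regulators take germ cells into meiosis. One holds the translational repressor GLD-1 and the Nanos-type protein NOS-3, and the other holds the cytoplasmic poly(A) polymerase GLD-2 with its partner GLD-3.

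The deposited table gives one value per gene for the whole comparison: a mean normalized count over libraries, the log2 fold change from input to immunoprecipitate, its standard error (SE) and a one-sided p with its adjustment. It gives nothing per library, so the value of a gene in each sample, the overlap of the groups and the depth of each library are unknown. It holds genes with a log2 fold change above 1 and an adjusted p under 0.01. Of the 20328 genes that the authors' adjusted p-values imply were tested, 13.4% were listed, and of the 19983 protein-coding genes of the WBcel235 reference 10.6%. Because the 7 regulators were picked from the listed genes, nothing is read from their 7 of 7 against these shares. The labels do not say whether the 5 numbered samples of a group came from separate cultures, so the p-values may measure technical spread. Of the marker genes examined, all 4 of body wall muscle, 5 of 7 of the intestine and 3 of 5 of the germline were listed. Of neurons 1 of 4 was listed, and none of 3 each of sperm and hypodermis. The 5 intestine markers are all yolk protein genes (*vit-1*, *vit-2*, *vit-4*, *vit-5* and *vit-6*), while *ges-1* and *elt-2* were not listed. Beside these counts stands the 10.6% of all protein-coding genes, and the markers are too few to rank the tissues. Somatic RNA is thus part of the same table, and fewer cells of a type cannot be told apart from less RNA per cell in whole-worm extract. The part of other tissues in the values of the regulators was not tested.

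All 7 mRNAs were higher in the immunoprecipitates, by a log2 fold change of 1.15 to 2.84 in the authors' deposited table. Their median was 2.38, or 5.22-fold, beside a median of 1.81 for all 2116 listed protein-coding genes. The folds fell into an upper group of 5 mRNAs between 2.28 and 2.84, from *glp-1*, *fbf-1*, *fbf-2*, *gld-2* and *nos-3*, and a lower group of 2 at 1.15 and 1.24, from *gld-3* and *gld-1*. Each of the 2 branches that promote meiosis has a member in both groups. The highest adjusted p among the 7 is 1.23e-08, for *gld-1* (the authors' deposited table, one-sided test with Benjamini-Hochberg adjustment).

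The Notch receptor gene *glp-1* (F02A9.6, chromosome III, 9092241 to 9099698, WBcel235) stands at the head of the pathway. In the authors' deposited table its mean was 1548 normalized counts and its log2 fold change 2.62 ± 0.23 (SE), which is 6.16-fold with a 95% interval of 4.51 to 8.40. The receptor mRNA was therefore enriched more than 75.3% of the listed protein-coding genes. At one end it overlaps the gene ZK507.1, which is not listed.

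The PUF protein genes *fbf-1* and *fbf-2* had the highest folds of the 7. In the authors' deposited table *fbf-1* had a log2 fold change of 2.84 ± 0.35 (SE), or 7.17-fold with a 95% interval of 4.44 to 11.6. For *fbf-2* the authors' deposited table gives 2.73 ± 0.31 (SE), or 6.64-fold with a 95% interval of 4.35 to 10.1. The pair differed by 0.11, less than the combined SE of 0.47. Their deposited means were the lowest of the 7, at 235 normalized counts for *fbf-1* and 187 for *fbf-2* in the authors' deposited table, and their SEs were the widest. The genes lie 8019 bp apart on chromosome II, *fbf-1* (H12I13.4) at 6078263 to 6080843 and *fbf-2* (F21H12.5) at 6088863 to 6091480 of WBcel235. They are closely similar copies, and how the authors counted reads that map to several places the sources used here do not give, so the division of counts between them is uncertain. Whether the values of the pair share reads was not tested.

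In the branch with GLD-1 and NOS-3, one mRNA stood in the lower group and one in the upper. The KH-domain repressor gene *gld-1* (T23G11.3, chromosome I, 7695681 to 7698222, WBcel235) had the highest mean of the 7 in the authors' deposited table, 10804 normalized counts, which ranks number 13 among the 2116 listed protein-coding genes. Its log2 fold change in the same authors' deposited table was 1.24 ± 0.21 (SE), or 2.36-fold with a 95% interval of 1.78 to 3.12 that reaches below the 2-fold limit of the table. Among the 30 other listed protein-coding genes with a mean within 2-fold of that of *gld-1*, 29 had a higher fold and 1 a lower one, and their median log2 fold change was 3.65. The mean pools both groups, so a gene with a high fold reaches the same mean from a lower input level. These genes are therefore not matched to *gld-1* by input level. The Nanos-type gene *nos-3* (Y53C12B.3, chromosome II, 9746316 to 9750462, WBcel235) had a mean of 3312 normalized counts and a log2 fold change of 2.28 ± 0.18 (SE) in the authors' deposited table. That is 4.86-fold, with a 95% interval of 3.79 to 6.23 that lies wholly above the interval of *gld-1*.

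The branch of the poly(A) polymerase was split in the same way. The catalytic subunit gene *gld-2* (ZC308.1, chromosome I, 6369748 to 6386194, WBcel235) had a mean of 2120 normalized counts and a log2 fold change of 2.38 ± 0.22 (SE) in the authors' deposited table. This is 5.22-fold, with a 95% interval of 3.86 to 7.06. The gene of its partner, *gld-3* (T07F8.3, chromosome II, 7132643 to 7137522, WBcel235), which encodes a protein related to Bicaudal-C, had a mean of 1654 normalized counts and the lowest fold of the 7. In the authors' deposited table its log2 fold change was 1.15 ± 0.18 (SE), or 2.22-fold with a 95% interval of 1.74 to 2.84 that also reaches below 2-fold. No member lay closer to the limit of the table. The interval of *gld-2* lies wholly above that of *gld-3*.

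**Figure D1:**
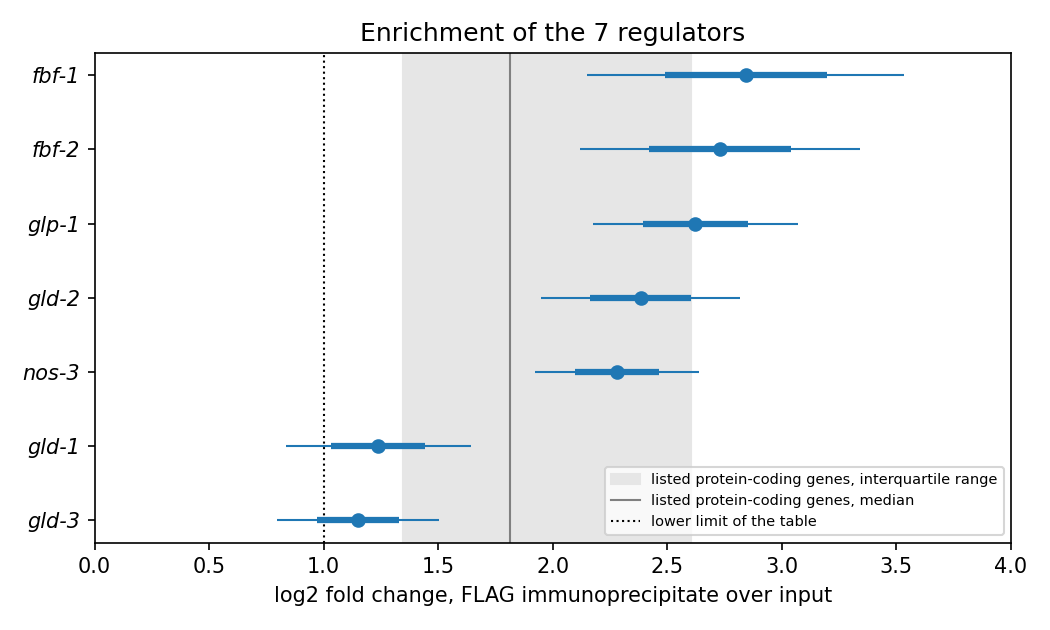
Log2 fold change of FLAG immunoprecipitate over input (horizontal axis) for each of the 7 regulators, from the authors' deposited table. Points are the deposited estimates, thick bars ± 1 SE and thin bars the 95% interval, the grey band and line are the interquartile range and median (1.81) of the 2116 listed protein-coding genes, and the dotted line is the lower limit of the table at 1; 5 genes stand at 2.28 or above and 2 at 1.24 or below.

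Ordered by fold, the genes ran *fbf-1*, *fbf-2*, *glp-1*, *gld-2*, *nos-3*, *gld-1* and *gld-3*. Neighbours in this order differed by less than their combined SE, except at 1 place. Between *nos-3* and *gld-1* the gap in log2 fold change was 1.04, which is 3.79 combined SEs. Of the 21 pairs of members, 10 had 95% intervals that do not overlap, and these are all 10 pairs of an upper with a lower gene. None of the 10 pairs within the upper group was separated, and neither was the 1 pair of the lower group. The grouping was drawn after the values were seen, and all estimates share the same 10 libraries, so it carries no test.

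Deposited means of the 7, not scaled by gene length, spanned 57.7-fold, from *fbf-2* to *gld-1*, while folds ran from 2.22 to 7.17. The table admits only genes above 2-fold and sets no such limit on the mean, so the 2 ranges are not compared. Of the 7, 5 exceeded the median of 375 normalized counts of the listed protein-coding genes. Set beside listed protein-coding genes with a mean within 2-fold of their own, the upper 5 exceeded the median fold and the lower 2 did not reach it. The share of these like genes with a lower fold was 85.5% for *fbf-1*, 83.0% for *fbf-2*, 79.4% for *glp-1*, 70.2% for *gld-2* and 60.7% for *nos-3*. For *gld-3* it was 10.8% and for *gld-1* 3.33%. Genes alike in mean need not be alike in input level, because the mean includes the immunoprecipitates. Of all listed protein-coding genes, 11.3% had a lower fold than *gld-3* and 79.3% a lower fold than *fbf-1*.

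**Figure D2:**
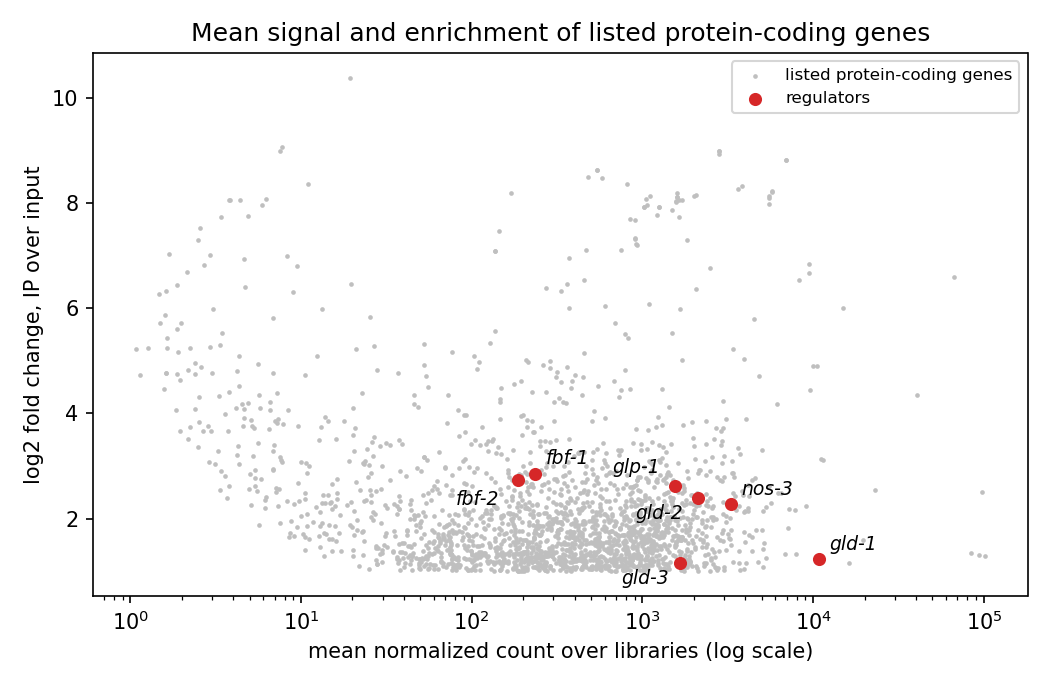
Mean normalized count over libraries (horizontal, log scale) against log2 fold change of immunoprecipitate over input (vertical) for the listed protein-coding genes in grey and the 7 regulators in red, from the authors' deposited table. *fbf-1* and *fbf-2* sit at 187 to 235 normalized counts and *gld-1* at 10804, near the lower edge of the cloud.

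Levels of different genes can be set side by side only per length, and the reference used gives gene spans with introns. Per kb of span, the mean level was 4250 normalized counts for *gld-1*, 799 for *nos-3*, 339 for *gld-3*, 208 for *glp-1*, 129 for *gld-2*, 91.0 for *fbf-1* and 71.5 for *fbf-2*. On this scale *gld-1* was listed highest and the *fbf* genes lowest, but the spread over samples is not known, so the order carries no error. The mean pools both groups, so the enrichment itself raises the level of the genes with high folds the most. Introns within a span lower this value by an amount not measured here, and *gld-2*, at 16447 bp, has the longest span of the 7.

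If the deposited mean is taken over 5 libraries of each group and the fold change as the ratio of the group means, the input and immunoprecipitate levels can be worked out. On that reading *fbf-2* had a mean of about 49.0 normalized counts in the inputs and 325 in the immunoprecipitates, and *fbf-1* 57.5 and 412. For *glp-1* the same reading gives 433 and 2664 normalized counts, and for *gld-2* 682 and 3559. For *gld-1* it gives 6434 and 15175, the largest gain in normalized counts of the 7 despite one of the smallest folds. Per kb of span, the implied input levels ran in the same order as the pooled means, at 2531 normalized counts for *gld-1*, 272 for *nos-3*, 211 for *gld-3*, 58.0 for *glp-1*, 41.5 for *gld-2*, 22.3 for *fbf-1* and 18.7 for *fbf-2*. These values are approximate, because no source used here says whether the deposited fold changes were shrunk.

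The genomic setting of the regulators was a feature the choice did not use. They lie on chromosomes I (2 genes), II (4) and III (1), and none on IV, V or X. Listed genes made up 14.4% of the reference's protein-coding genes on chromosome I, 9.90% on II and 13.8% on III, beside 10.3% on IV, 6.07% on V and 355 of 2730 genes on X. Spans run from 2542 bp for *gld-1* to 16447 bp for *gld-2*. Among protein-coding genes with a span within 2-fold of that of *gld-2*, 50.0% were listed, and for *glp-1* the share was 28.1%. For *gld-3* and *nos-3* it was 17.9% and 14.1%. For the shorter genes *fbf-1*, *fbf-2* and *gld-1* it was 7.08%, 7.25% and 6.94%. The *fbf* genes and *gld-1* therefore come from a range of spans in which few genes were listed, and *gld-2* from one in which many were. The part of span in the values of the regulators was not tested.

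No adjacent protein-coding gene was in the table. None of the 13 different protein-coding genes that flank the 7 regulators was listed, and neither were the 4 protein-coding genes that overlap *glp-1*, *fbf-1*, *nos-3* or *gld-2* at an end. Of all protein-coding genes of the reference only 10.6% were listed. With so few neighbours, their absence is therefore not read as a result about these loci. The locus of *gld-2* holds 2 short non-coding RNA genes within its span, ZC308.5 and ZC308.6, and both were listed. Beside this stands the 13.4% of all tested genes that were listed. The share for non-coding genes alone was not worked out, so nothing is read from this count. In the authors' deposited table ZC308.5 (chromosome I, 6375006 to 6375564, WBcel235) had a log2 fold change of 7.98 ± 2.11 (SE) at a mean of 3.68 normalized counts. ZC308.6 (chromosome I, 6374842 to 6374988, WBcel235) had 7.04 ± 2.33 (SE) and a mean of 1.85 normalized counts, also in the authors' deposited table. Both rest on very few reads, against a mean of 2120 for *gld-2* itself, and no source used here gives the strand setting of the counting, so their reads cannot be told apart from unspliced *gld-2* RNA. The other 6 regulators overlap no listed gene.

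The wider pathway was described by 7 lists of genes around the 7 regulators, which name 91 genes, 4 of them in more than one list. Of the 89 found in the reference, 26 were listed, or 29.2%, with log2 fold changes of 1.05 to 5.50 and a median of 1.79 in the authors' deposited table. The lists name genes known from work on the germline, while the 10.6% of all protein-coding genes includes genes that adults do not express, and no set test was made. The lists are small and were chosen with earlier results of these data known, so their shares are given as descriptions. All 26 have an adjusted p of 8.82e-05 or lower in the authors' deposited table (one-sided, Benjamini-Hochberg). Whether a gene outside the table was tested at all, and whether it was lower or only slightly higher in the immunoprecipitates, is not known.

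Of the other Notch pathway genes, 3 of 16 were listed, or 18.8% beside 10.6% of all protein-coding genes. They were *sup-17*, an ADAM protease gene, at 1.66 ± 0.20, *sel-10*, an F-box gene that dampens Notch signalling, at 1.81 ± 0.36, and the epsin gene *epn-1* at 1.38 ± 0.24 (each a log2 fold change with its SE, as in the authors' deposited table). All 3 stood below *glp-1*, at 2.62. The ligand genes *lag-2* and *apx-1* were not listed, and neither was *lin-12*, which encodes the other Notch receptor. The gamma-secretase genes *sel-12*, *hop-1*, *aph-1*, *aph-2* and *pen-2* and the nuclear effectors *lag-1* and *sel-8* were not listed either. The germline Notch targets *sygl-1* and *lst-1*, whose products work with FBF in stem cells, were also not listed.

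Of 11 other PUF and Nanos genes, relatives of the *fbf* genes and *nos-3*, 2 were listed, or 18.2% beside 10.6% of all protein-coding genes. They were *puf-9* at 2.39 ± 0.32 and *puf-4* at 3.06 ± 0.72 (each a log2 fold change with its SE, as in the authors' deposited table). The authors' deposited table gives *puf-4* a mean of 6.96 normalized counts, the only one of the 26 under 100. Among the unlisted genes were *puf-8*, *puf-3* and *puf-11*, and the Nanos genes *nos-1* and *nos-2*.

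The list of partners of FBF and GLD proteins also holds genes with other ties to the pathway, such as *teg-1* and *teg-4*. Of its 17 genes found in the reference 7 were listed, or 41.2% beside 10.6% of all protein-coding genes. The CPEB gene *cpb-1*, whose product binds FBF-1, stood at 3.06 ± 0.35 (log2 fold change with its SE, from the authors' deposited table). This estimate was above those of all 7 regulators, but its distance from *fbf-1* is less than the SE of either gene. In the authors' deposited table *rnp-8*, which encodes an alternative partner of GLD-2, stood at 1.23 ± 0.18 (SE), near *gld-1* and *gld-3*. The ataxin-2 gene *atx-2* stood at 2.19 ± 0.17, the La-related gene *larp-1* at 2.14 ± 0.16 and the translational repressor gene *ifet-1* at 2.29 ± 0.38, each a log2 fold change with its SE from the authors' deposited table. The genes *teg-1* and *teg-4*, named for tumours in sensitized germlines, stood at 2.60 ± 0.29 and 1.92 ± 0.14 (each a log2 fold change with its SE, as in the authors' deposited table). Unlisted genes of this list include *gld-4*, the gene of the other cytoplasmic poly(A) polymerase, and *fog-2*, whose product binds GLD-1. The deadenylase genes *ccf-1* and *ccr-4* were not listed either. The gene of the tagged protein, *dlc-1*, was not listed.

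Of 14 sex determination genes found in the reference 5 were listed, or 35.7% beside 10.6% of all protein-coding genes. The widest fold was that of *tra-1*, which encodes the terminal transcription factor of the pathway, with a log2 fold change of 5.50 ± 0.32 (SE) and a mean of 787 normalized counts, both from the authors' deposited table. The helicase genes *laf-1*, *mog-5* and *mog-4* stood at 2.12 ± 0.14, 1.43 ± 0.11 and 1.08 ± 0.10, and the gene of the DAZ-type protein *daz-1* at 1.26 ± 0.23 (each a log2 fold change with its SE, as in the authors' deposited table). The *fem* genes, *tra-2*, *fog-1* and *fog-3* were not listed. In the ubiquitin ligase list, 4 of 11 were listed, or 36.4% beside the same 10.6%. They were *prom-1*, an F-box gene that promotes meiotic entry, at 1.40 ± 0.15, its cullin gene *cul-1* at 1.13 ± 0.13, and *zyg-11* and *zer-1*, which encode adaptors of another cullin, at 2.38 ± 0.21 and 1.48 ± 0.16 (each a log2 fold change with its SE, as in the authors' deposited table).

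The mRNAs that the regulators are known to bind were looked at next. Of 12 further mRNAs known as FBF targets 3 were listed, or 25% beside 10.6% of all protein-coding genes. They were the MAP kinase gene *mpk-1* at 1.41 ± 0.18, the cell cycle inhibitor gene *cki-2* at 1.05 ± 0.23 and the cohesin gene *rec-8* at 1.72 ± 0.15 (each a log2 fold change with its SE, as in the authors' deposited table). The unlisted ones include the chromosome axis genes *him-3*, *htp-1* and *htp-2* and the synapsis genes *syp-2* and *syp-3*. *gld-1* and the *fbf* mRNAs are themselves known FBF targets. The *fbf* mRNAs had the highest folds of the 7, and *gld-1* stood in the lower group. Of 12 further mRNAs known as GLD-1 targets 2 were listed, or 16.7% beside the same 10.6%. They were the cyclin E gene *cye-1* at 1.77 ± 0.21 and *mes-3*, which encodes a chromatin regulator of the germline, at 2.56 ± 0.26 (each a log2 fold change with its SE, as in the authors' deposited table). *glp-1*, another known GLD-1 target, stood at 2.62. The unlisted GLD-1 targets include the yolk receptor gene *rme-2* and the oocyte genes *oma-1*, *oma-2* and *spn-4*.

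**Figure D3:**
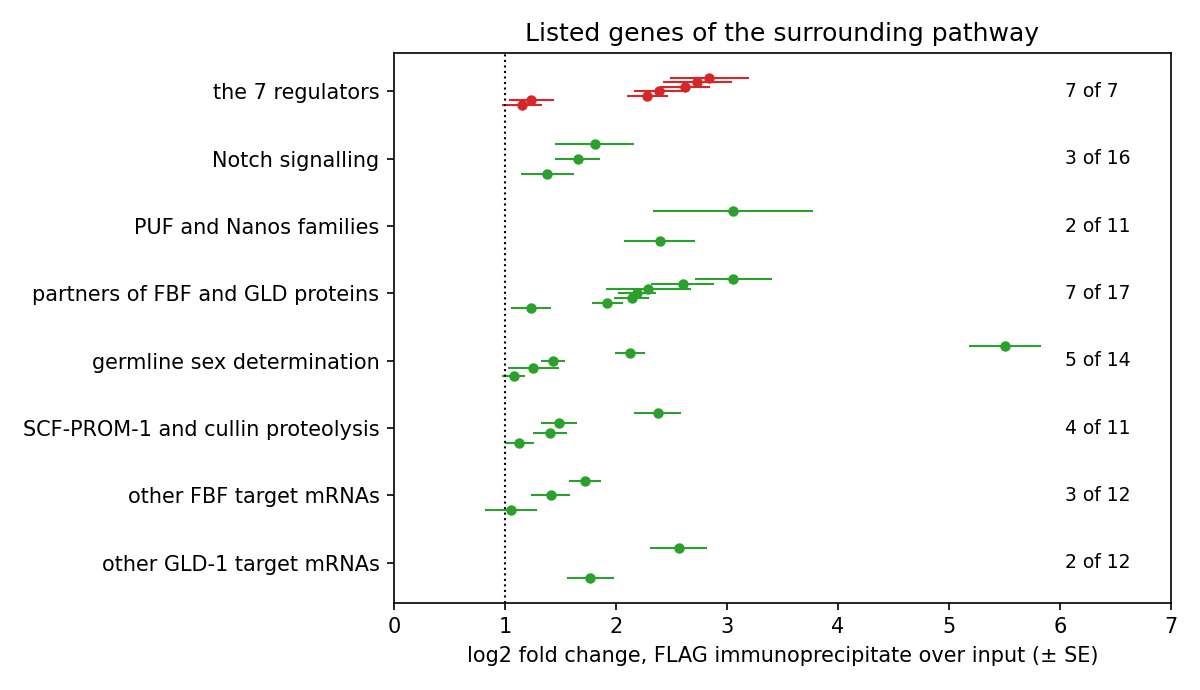
Log2 fold change of immunoprecipitate over input (horizontal axis, points with ± SE bars) for the listed genes of each pathway list and for the 7 regulators, from the authors' deposited table, with the dotted line at the table's lower limit of 1. The numbers at the right give how many genes of each list were listed of those in the reference; *tra-1* at 5.50 stands apart from the others, which lie between 1.05 and 3.06.

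Stricter rules of calling were applied to the same table. At or above 4-fold were 5 of the 7 regulators, the upper group, and 7.21% of all tested genes. In a one-sided test against a 2-fold change, adjusted over all 20328 genes, 5 of 7 were called, all but *gld-1* and *gld-3*, and 6.64% of all tested genes. All 7 had a mean of at least 100 normalized counts, as had listed genes that make up 8.24% of the tested genes, and 5 had at least 1000, all but *fbf-1* and *fbf-2*, beside 2.70%. An adjusted p under 0.001 was met by all 7 and by 11.6% of tested genes. Since the members were chosen from this comparison, these counts are given as descriptions.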

How the data were processed

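RNA immunoprecipitation with an antibody against FLAG was followed by sequencing in 5 immunoprecipitates and 5 inputs, grouped by title. Per the submitters' processing notes, the tools were DESeq2 1.12.3, STAR 2.5.2b-0, Bowtie2 2.3.0 and Trim Galore and the builds ce11 and WBcel235; no source used here gives their roles, the counting or the fitted design. The authors deposited 1 table of their own comparison. Per the file headers it holds a mean signal (baseMean), a log2 fold change with its SE, also on the log2 scale, a score named stat, a p-value and an adjusted p-value. The deposited p is the upper normal tail of the fold change over its SE to a relative tolerance of 1e-06 in 2725 of 2725 genes with a p above 0. The number of tested genes was recovered from the deposited p-values, and 96.2% of the implied ranks were whole to 0.0001; this step was tested on simulated data.

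The members and lists were chosen with earlier results of these data known. One further member of the chosen set is not reported here. Named genes are the 7 members and the listed genes of 7 lists; 2 names of the lists were not found in the reference. The table's 2660 matched names (97.4%) gave chromosome, span and RNA class from RefSeq genes of WBcel235. Intervals are the fold change ± 1.96 SE. Levels were to be scaled by coding length, which was not available here, so gene span was used, and the planned comparison of protein sequences was not made. No values per library exist in the file, so no model was refitted, no gene with a like pattern over samples was sought and depth is unknown. Python 3.11.15, pandas 2.3.3, scipy 1.17.1 and matplotlib 3.10.9 were used.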

Additional observations from a re-analysis of the deposited data

How the results depend on the processing

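No paired analysis was possible because the deposited table has no values per library, and for the same reason no replicate could be left out. The number of regulators called, 7, was 5 at or above 4-fold, in the test against a 2-fold change and with a mean of 1000 normalized counts or more, and 7 under the other rules. Of the 26 pathway genes, 11 were at or above 4-fold, 14 passed the test against a 2-fold change and 25 had a mean of 100 normalized counts or more. The median log2 fold change of the 7 regulators, 2.38, ran from 2.33 to 2.503 when each gene was left out in turn, and the mean weighted by the inverse squared SE was 1.99. The share of listed genes with a lower fold than this median was 56.6% over all listed genes, 70.3% over protein-coding genes and 73.7% over genes whose mean was 100 normalized counts or more. The level per kb of coding length could not be computed, because only gene spans were available here, and the implied input level per kb, an alternative chosen after seeing the data, kept the order of the 7 genes. Library depth is unknown, and *fbf-1* and *fbf-2* have the lowest means and the widest SEs of the 7.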
